A study of Homo sapiens with 4 samples.

Results

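A set of 10 long non-coding RNA genes (lncRNAs) widely studied in cancer, MALAT1, NEAT1, UCA1, PVT1, H19, MEG3, TUG1, HOTAIR, KCNQ1OT1 and NORAD, was compared between LM2 cells and MDA-MB-231 cells. The 10 members were chosen by name, with earlier results of these data known. All 110 of their transcript models among the 65423 listed transcripts were taken, with the model of highest mean count standing for each gene. MDA-MB-231 is a human breast cancer line that lacks hormone receptors, and LM2 (MDA-MB-231-LM2) is a subline of it that is highly metastatic to the lung. RNA sequencing of total RNA was used to look for lncRNAs that differ between the lines. There are 2 labelled samples per line, but the deposited tables have 1 column for each line. No source used here says if that column is a single library or the sum of both. LM2 cells were grown in DMEM with a CO2 supply and MDA-MB-231 cells in L-15 medium in air, both with fetal serum, so the effect of culture conditions and that of the line itself cannot be told apart.

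The columns sum to 128985870 counts in LM2 and 130689252 counts in MDA-MB-231. Levels are given as RPKM, which is the count after scaling for the length of the transcript and for the total of the column, where 1 RPKM over 1 kilobase stands for 129 counts in LM2 and 131 counts in MDA-MB-231. Ratios (LM2 over MDA-MB-231) were scaled to the column totals and carry 95% intervals (exact, Clopper-Pearson) that cover counting error only. With 1 column per cell line the spread between replicates is unknown and p-values are not printed. Vimentin (VIM), typical of mesenchymal-like breast cancer cells, had an RPKM of 951 in LM2 and 550 in MDA-MB-231, and KRT18, a keratin, had 134 in LM2 and 112 in MDA-MB-231. CD44, an adhesion receptor, had 14048 counts in LM2 and 17246 in MDA-MB-231. The estrogen receptor gene ESR1 had 8 counts in LM2 and 2 in MDA-MB-231, and the progesterone receptor gene PGR had 2 in LM2 and 7 in MDA-MB-231.

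LncRNAs act as RNA, without being translated. Some build bodies in the nucleus, some bind and occupy proteins in the cytoplasm, and some act on the genes beside them in the chromosome. MALAT1 is a very abundant RNA of nuclear speckles, where splicing factors are stored, and NEAT1 is the scaffold of paraspeckles. NORAD is a cytoplasmic RNA that binds the Pumilio proteins, and TUG1 is found in both compartments. UCA1 was first described in bladder cancer and PVT1 lies beside the oncogene MYC. H19, MEG3 and KCNQ1OT1 are imprinted, that is, read from only the copy of 1 parent, and HOTAIR lies in the HOXC cluster and is studied for its link to metastasis of breast cancer.

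The sequences below, from GENCODE release 29 on GRCh38, show features that these RNAs are known for. The 3′ ends of MALAT1 and of long NEAT1 are not made by ordinary polyadenylation: an A-rich tail folds back on T-rich runs (U in the RNA) into a triple helix that protects the end. The stretch of NEAT1 lies at chr11:65445441-65445540 (plus strand) and ends the model of 22743 bases. That of MALAT1 lies at chr11:65506017-65506116 (plus strand) and ends 353 bases before the end of the model of 8708 bases, which runs on past the place where the RNA is known to be cut. Capitals mark the 11 last bases, which are the same in both RNAs, and runs of T broken by 1 or 2 other bases.
NEAT1 3′ end: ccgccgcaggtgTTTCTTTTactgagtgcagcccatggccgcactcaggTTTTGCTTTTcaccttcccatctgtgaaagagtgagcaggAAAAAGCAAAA
MALAT1 3′ end: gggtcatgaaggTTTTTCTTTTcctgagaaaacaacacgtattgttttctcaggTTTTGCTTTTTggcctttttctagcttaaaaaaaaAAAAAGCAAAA

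NORAD is known for its many binding sites of Pumilio proteins, which read the RNA motif UGUANAUA, written TGTANATA in DNA letters. The motif occurred 15 times in the NORAD model, or 2.81 times per kilobase. It occurred 6 times in NEAT1, 9 times in the far longer KCNQ1OT1, 3 times in HOTAIR and 0 times in the models searched of MALAT1, UCA1, PVT1, H19, MEG3 and TUG1. In the reverse complement it occurred 1 time in NORAD, 3 times in MALAT1, 7 times in NEAT1, 15 times in KCNQ1OT1 and 0 times in the others. For TUG1 a model of 2233 bases was searched, and for UCA1 a model of 2687 bases whose length differs from those deposited. Of 187 other lncRNA transcripts within 10% of the length of NORAD, 38.5% held the motif, with a median of 0 and a largest number of 16, and 2 of them held at least as many as NORAD. A match is a description of letters and not a measured binding site. In 3 places a pair of motifs stood 1 base apart, and these are shown, with the motifs in capitals, because repeated Pumilio motifs are what NORAD is known for. They lie on the minus strand at chr20:36049491-36049531, chr20:36048294-36048334 and chr20:36047658-36047698, in the only exon of NORAD.
NORAD first pair: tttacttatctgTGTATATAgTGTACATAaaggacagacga
NORAD second pair: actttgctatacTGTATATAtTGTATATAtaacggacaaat
NORAD last pair: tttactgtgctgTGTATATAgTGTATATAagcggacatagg

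A part of UCA1 is shown because its level differed most between the lines and because a gene of the other strand, LINC01764, lies across part of it. The strand setting of the counting is not given, so in the shared part the reads of both genes cannot be told apart. In a model of 3 exons, exons 1 and 2 hold no base shared with LINC01764, and exon 3 holds 489 shared bases in 2 stretches. The smaller of the shared stretches, 162 bases, is given in capitals with 12 bases on each side (chr19:15835094-15835279, plus strand).
UCA1 exon 3, part: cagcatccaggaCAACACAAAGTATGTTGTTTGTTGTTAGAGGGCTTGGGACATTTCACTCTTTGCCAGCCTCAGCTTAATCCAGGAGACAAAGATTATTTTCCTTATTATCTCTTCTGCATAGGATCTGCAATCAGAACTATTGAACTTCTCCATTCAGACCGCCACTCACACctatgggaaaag

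The 10 genes spanned a wide range of levels, from some of the most abundant lncRNAs to none detected. MALAT1 was highest in both lines, followed by NORAD, then by TUG1 and NEAT1. TUG1 had 6.11 RPKM in LM2 and 5.92 RPKM in MDA-MB-231, and NEAT1 had 3.86 RPKM in LM2 and 5.89 RPKM in MDA-MB-231, so that their counting intervals were apart in LM2 and overlapped in MDA-MB-231. This order of the pair rests on the long NEAT1 model: the short one, with 8.64 RPKM in LM2 and 15.7 RPKM in MDA-MB-231, stood above that of TUG1 in both lines. PVT1 was next, and these 5 were the members above 1 RPKM in both lines. By RPKM, MALAT1 ranked 26 in LM2 and 18 in MDA-MB-231 among 12426 lncRNA genes, and NORAD ranked 57 in LM2 and 37 in MDA-MB-231. UCA1 stood above KCNQ1OT1 in MDA-MB-231 and below it in LM2. H19 was near the limit of detection, and MEG3 and HOTAIR had 0 counts in both lines.

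**Figure D1:**
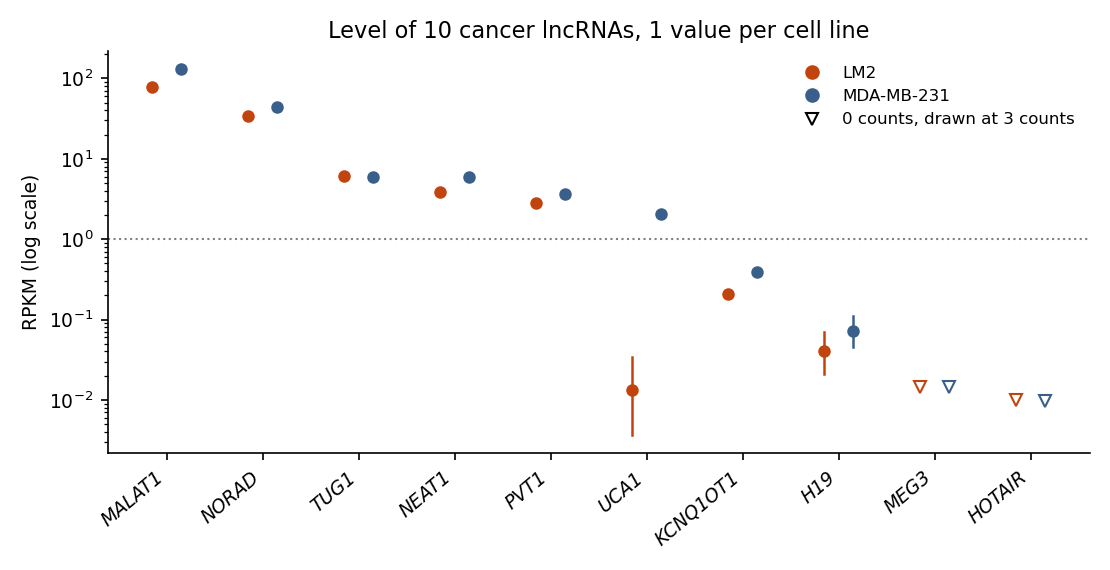
RPKM (log axis) of the 10 lncRNA genes, with LM2 at the left and MDA-MB-231 at the right of each gene. Points are the single value of each cell line, lines are 95% counting intervals (often smaller than the point), open triangles stand at the RPKM of 3 counts for genes with 0 counts, and the dotted line is 1 RPKM. UCA1 has 0.0134 RPKM in LM2 and 2.06 RPKM in MDA-MB-231, while for the other detected genes both lines are less than 2-fold apart.

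For ratios a mean of at least 50 counts was required, and 7 members reached it. Of these, 6 were below and 1 was above MDA-MB-231 in LM2, with a median log2 ratio of -0.61. For comparison, 50.4% of 15510 named genes (median log2 ratio -0.0049) and 54.3% of 2187 lncRNA genes (median log2 ratio -0.05) were below 0 at the same minimum. Only UCA1 was over 2-fold lower, 1 of 7, and 0 of 7 were over 2-fold higher. The same limit was passed downward by 6.87% of all named genes and by 7.54% of lncRNA genes, and upward by 4.6% of all named genes and 4.62% of lncRNA genes. With 7 members, a count of 1 cannot be set apart from these shares. Because the members were chosen with earlier results of these data known, the 6 of 7 below 0 and the median are a description only.

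**Figure D2:**
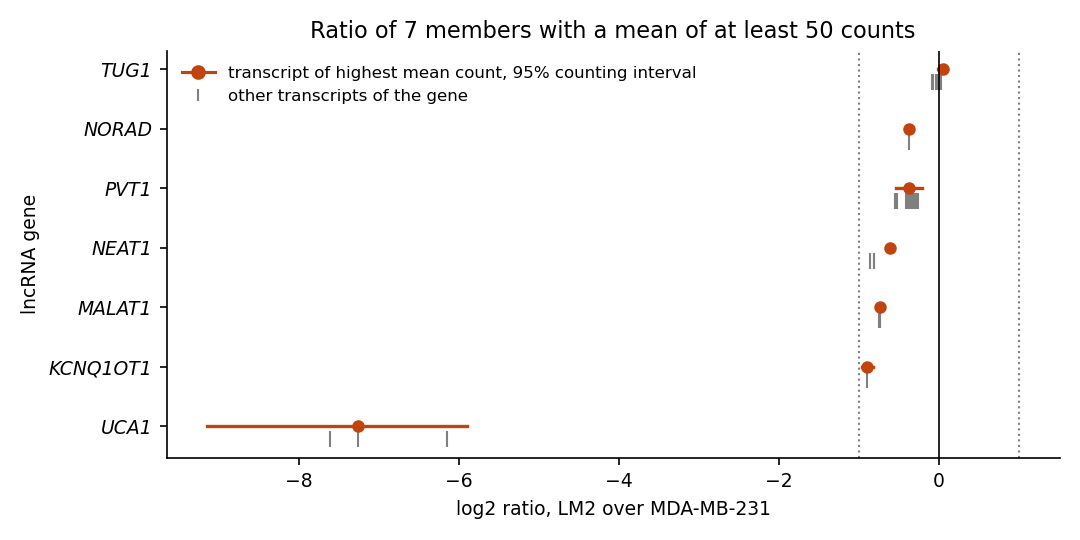
Log2 ratio of LM2 over MDA-MB-231 for the 7 members that reached a mean of 50 counts. Points are the transcript of highest mean count with its 95% counting interval, grey marks are the other transcripts of the gene at that minimum, and dotted lines are 2-fold. UCA1 stands at -7.26 and the other 6 between -0.90 and 0.05.

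UCA1 (gene at chr19:15828206-15836326, GRCh38, plus strand) was nearly absent from LM2. Its RefSeq model NR_015379 had 4 counts in LM2 and 622 counts in MDA-MB-231, or 0.0134 RPKM in LM2 and 2.06 RPKM in MDA-MB-231. This is 153-fold lower in LM2 (59.6 to 565), a log2 ratio of -7.26 (-9.14 to -5.90). It was the lowest ratio among the 2187 genes that the annotation classes as lncRNAs at the minimum. TP73-AS1, a cancer lncRNA outside that class, was lower still, with a log2 ratio of -8.21. Genes with 0 counts in LM2 were given 3 counts, so some of them may rank above UCA1 for that reason alone. The other 3 models of UCA1 gave the same direction. ENST00000397381.3 had 4 counts in LM2 and 622 in MDA-MB-231, ENST00000589333.1 had 1 in LM2 and 198 in MDA-MB-231, and ENST00000600160.1 had 0 in LM2 and 216 in MDA-MB-231. The last is 71.1-fold lower when the 0 is set to 3 counts, with a counting interval from 57.3-fold upward. The models share reads and are not replicates.

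LINC01764, the antisense neighbour of UCA1, had 0 counts in LM2 and 86 in MDA-MB-231. It was 28.3-fold lower when the 0 is set to 3 counts, with a counting interval from 22.5-fold upward. Its 489 bases in common with UCA1 are 11.8% of the exon bases of UCA1. The counted model of LINC01764 has only 380 bases, and its level in MDA-MB-231, 1.73 RPKM, was near the 2.06 RPKM of UCA1. How many of these bases lie in UCA1 exons was not tested. Because the strand setting is unknown, the counts of LINC01764 may be reads of UCA1, and a separate loss is not shown. The CYP4F genes beside UCA1, which encode cytochrome P450 enzymes of fatty acid hydroxylation, were at or near 0 in both lines: CYP4F11 had 0 counts in LM2 and 10 in MDA-MB-231, CYP4F2 had 0 in LM2 and 1 in MDA-MB-231, and CYP4F3 and CYP4F12 had 0 in both. The 10 nearest genes at the minimum, 5 on each side, were all within 2-fold, with a median log2 ratio of -0.11 and a range from -0.46 (AP1M1) to 0.18 (TPM4). LINC01764, with a mean under 50 counts, is not among these 10.

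Regulators that cancer studies place upstream of lncRNAs, UCA1 among them, were taken as a list of 11 genes. All 11 were at the minimum, and the median log2 ratio was -0.04. In each direction 1 of 11 was beyond 2-fold, beside 6.87% lower and 4.6% higher of all named genes, so these counts are no result about the list. TEAD transcription factors bind DNA with the Hippo pathway coactivators YAP1 and WWTR1. TEAD3 had 431 counts in LM2 and 1655 in MDA-MB-231, a ratio of 0.264 (0.237 to 0.294). TEAD4 had 2072 counts in LM2 and 946 in MDA-MB-231, a ratio of 2.22 (2.05 to 2.40). The member of highest count was HIF1A, the hypoxia factor, with 28497 counts in LM2 and 19418 in MDA-MB-231, a ratio of 1.49 (1.46 to 1.51).

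Both nuclear body RNAs were lower in LM2. MALAT1 (chr11:65497688-65506516, plus strand, ENSG00000251562.8) had 87674 counts in LM2 and 147920 in MDA-MB-231, or 78.1 RPKM in LM2 and 130 RPKM in MDA-MB-231. It was 1.67-fold lower in LM2 (1.65 to 1.68), a log2 ratio of -0.74, and its 4 models agreed closely, between -0.75 and -0.74. Among lncRNA genes 12.4% had a lower ratio, so a difference of this size was not rare.

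NEAT1 (chr11:65422774-65445540, plus strand) lies next to MALAT1. Its long model had 11325 counts in LM2 and 17500 in MDA-MB-231, or 3.86 RPKM in LM2 and 5.89 RPKM in MDA-MB-231, 1.53-fold lower in LM2 (1.49 to 1.56), with a log2 ratio of -0.61. Among lncRNA genes 16.9% had a lower ratio. The short model NR_028272, of 3735 bases, had 4163 counts in LM2 and 7646 in MDA-MB-231, or 8.64 RPKM in LM2 and 15.7 RPKM in MDA-MB-231. A further 2 models inside the 5′ part had ratios like it: ENST00000499732.1 had 2472 counts in LM2 and 4405 in MDA-MB-231, and ENST00000601801.1 had 2193 in LM2 and 3895 in MDA-MB-231.

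NEAT1 is made in a short and a long form from the same start, and only the long form reaches the 3′ part and can build paraspeckles. The counts of the short model were therefore subtracted from those of the long one, a step chosen after the values were seen. The 3′ part, 19008 bases, had 7162 counts in LM2 and 9854 in MDA-MB-231, or 2.92 RPKM in LM2 and 3.97 RPKM in MDA-MB-231. It was 1.36-fold lower in LM2 (1.32 to 1.40), while the 5′ part was 1.81-fold lower (1.75 to 1.88). Read density in the 5′ part over that in the 3′ part was 2.96 in LM2 and 3.95 in MDA-MB-231, and the odds ratio of LM2 over MDA-MB-231 was 0.749 (0.713 to 0.787). The 5′ part holds reads of both forms, so this ratio is not the ratio of the forms.

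**Figure D3:**
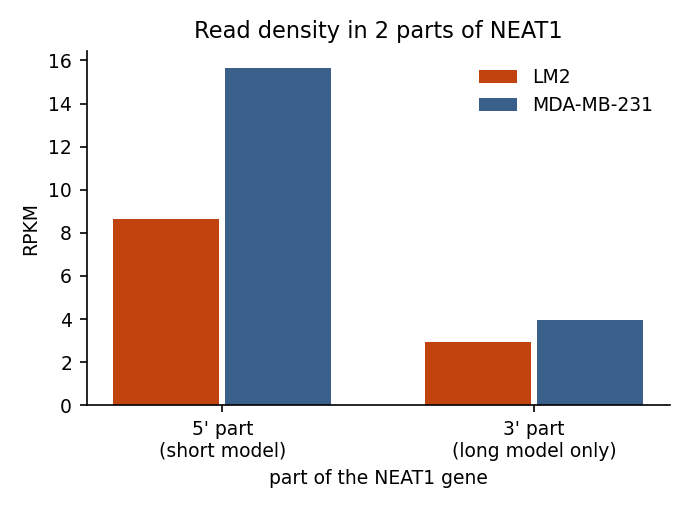
RPKM in the 5′ part of NEAT1, which the short and the long form share, and in the 3′ part, which only the long form covers, with LM2 at the left and MDA-MB-231 at the right of each pair. Bars are the single value of each line, 8.64 in LM2 and 15.7 in MDA-MB-231 in the 5′ part, and 2.92 in LM2 and 3.97 in MDA-MB-231 in the 3′ part.

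All 9 genes of a list of paraspeckle proteins were above 0, with a median log2 ratio of 0.21, 0 of 9 over 2-fold in either direction, and a range from 0.04 to 0.51. Of all named genes 49.6% were above 0. When counts were divided by the total of mRNA models alone, 8 of 9 were above 0, with a median of 0.15. The gene of highest count was HNRNPK, an RNA-binding protein needed for NEAT1 to be made in its long form, with 34108 counts in LM2 and 29836 in MDA-MB-231, a ratio of 1.16 (1.14 to 1.18). The list of nuclear speckle proteins gave 4 of 9 below and 5 of 9 above 0, a median of 0.06 and 0 over 2-fold. Its gene of highest count was SRSF1, a splicing factor, with 29852 counts in LM2 and 25099 in MDA-MB-231, a ratio of 1.21 (1.18 to 1.23).

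Genes around MALAT1 and NEAT1 with a mean of 50 counts or more differed less than MALAT1 did. LTBP3, which binds latent TGF-beta, had 328 counts in LM2 and 452 in MDA-MB-231, and FRMD8 had 2475 in LM2 and 1956 in MDA-MB-231. For the 10 nearest genes of MALAT1 the median log2 ratio was -0.08, from -0.70 (TIGD3) to 0.48 (ZNRD2), and 0 of them were as low as MALAT1. NEAT1 and MALAT1 count among each other's neighbours. Of the 10 nearest genes of NEAT1, 2 had a log2 ratio below its -0.61, namely TIGD3 and MALAT1. A lincRNA of the other strand, AP000769.2, lies across 396 bases of MALAT1 and had 18 counts in LM2 and 42 in MDA-MB-231, under that minimum, with a log2 ratio of -1.20. Its counted model is 396 bases long, at 0.352 RPKM in LM2 and 0.812 RPKM in MDA-MB-231. MALAT1 stood at 78.1 RPKM in LM2 and 130 RPKM in MDA-MB-231. With the strand setting not given, the counts of AP000769.2 cannot be told apart from reads of MALAT1, and their source was not tested. MIR612, whose 100 bases lie within NEAT1 on its strand, had 36 counts in LM2 and 51 in MDA-MB-231, which cannot be told apart from reads of NEAT1. TALAM1, the antisense partner of MALAT1, was not analysed here.

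NORAD (chr20:36045622-36050960, minus strand, ENSG00000260032.1) was 1.30-fold lower in LM2 (1.28 to 1.32). It had 23633 counts in LM2 and 31062 in MDA-MB-231, or 34.3 RPKM in LM2 and 44.5 RPKM in MDA-MB-231, in both its models. Of the proteins it binds, the Pumilio gene PUM2 had 2192 counts in LM2 and 2833 in MDA-MB-231, a ratio of 0.784 (0.741 to 0.829). RBMX, a nuclear RNA-binding protein reported as a NORAD partner, had 13477 counts in LM2 and 9927 in MDA-MB-231, a ratio of 1.38 (1.34 to 1.41). Neither was over 2-fold in either direction.

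Of the 10 nearest genes of NORAD 8 were below and 2 above 0. The log2 ratio was -0.38 for NORAD against a median of -0.32 for the 10 nearest genes, with 4 of them below NORAD and a range from -1.89 for MYL9, a myosin light chain, to 0.10 for AAR2. EPB41L1, a membrane skeleton protein, had 270 counts in LM2 and 405 in MDA-MB-231, a ratio of 0.675 (0.577 to 0.790). AAR2, a splicing factor assembly protein, had 2896 in LM2 and 2729 in MDA-MB-231, a ratio of 1.08 (1.02 to 1.13).

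TUG1 (chr22:30969245-30979395, plus strand, ENSG00000253352.9) was the member with the most even level. Its model NR_002323 had 5598 counts in LM2 and 5496 in MDA-MB-231, or 6.11 RPKM in LM2 and 5.92 RPKM in MDA-MB-231, a ratio of 1.03 (0.994 to 1.07). The log2 ratio of 0.05 has a counting interval that takes in 0, and its sign turned when counts were divided by the total of mRNA models alone (-0.010). The 10 models ranged from -0.09 to 0.05. The neighbours MORC2, a chromatin ATPase, and SMTN, a smooth muscle cytoskeletal protein, were close to even: MORC2 had 1015 counts in LM2 and 1087 in MDA-MB-231, and SMTN had 4965 in LM2 and 4923 in MDA-MB-231. Farther neighbours differed more. Beyond 2-fold, 2 of the 10 nearest genes were lower and 0 higher, and log2 ratios ranged from -1.42 (SELENOM, a selenoprotein) to 0.52 (OSBP2, an oxysterol-binding protein), with a median of -0.02. The antisense lincRNA AC004542.2 shares 546 exon bases with TUG1 and had 410 counts in LM2 and 429 in MDA-MB-231. Its counted model is 546 bases long, and its level, 5.82 RPKM in LM2 and 6.01 RPKM in MDA-MB-231, was near that of TUG1. The strand setting of the counting is not given, so these counts cannot be told apart from reads of TUG1.

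PVT1, whose exons hold several small RNAs, had 21 models, 18 of them at the minimum. The model of highest count, ENST00000521951.1, had 563 counts in LM2 and 741 in MDA-MB-231, or 2.84 RPKM in LM2 and 3.69 RPKM in MDA-MB-231. It was 1.30-fold lower in LM2 (1.16 to 1.45), a log2 ratio of -0.38, and all 18 models were below 0, from -0.56 to -0.26. Transcripts of this gene share exons, so the 18 values are not independent. MIR1204, a microRNA whose 67 bases lie in exons of PVT1 on its strand, had 8 counts in LM2 and 21 in MDA-MB-231. These cannot be told apart from reads of PVT1.

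MYC, the oncogene next to PVT1, was nearly even, with 7864 counts in LM2 and 8321 in MDA-MB-231, or 25.8 RPKM in LM2 and 26.9 RPKM in MDA-MB-231, a ratio of 0.958 (0.928 to 0.988). The 10 nearest genes of PVT1 ranged from -3.60 for GSDMC, a gasdermin, to 1.77 for KCNQ3, a potassium channel. Their median log2 ratio was -0.54, and beyond 2-fold 3 were lower and 1 was higher. The log2 ratio of PVT1, -0.38, was thus above that of 6 of its 10 neighbours.

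KCNQ1OT1 (chr11:2608328-2699994, minus strand) was 1.86-fold lower in LM2 (1.77 to 1.95), the member with the lowest ratio after UCA1. This unspliced RNA of 91671 bases had 2485 counts in LM2 and 4685 in MDA-MB-231, or 0.210 RPKM in LM2 and 0.391 RPKM in MDA-MB-231. Its count is large because of its length, while its level per length was low. It lies inside KCNQ1, a potassium channel gene of the other strand, with which it shares 121 exon bases. KCNQ1 itself had 1 count in LM2 and 12 in MDA-MB-231 in its own exons. Unspliced RNA of KCNQ1 would cover the same bases and cannot be told apart from KCNQ1OT1 without strand.

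KCNQ1OT1 is known to silence genes on its own chromosome copy. Of the genes listed here for its locus, 3 had a mean of at least 50 counts, and of these 2 were higher and 1 was lower in LM2. KCNQ1 was lower too, with 1 count in LM2 and 12 in MDA-MB-231, but its mean was under 50 counts. PHLDA2, a regulator of placental growth, had 2602 counts in LM2 and 1332 in MDA-MB-231, a ratio of 1.98 (1.85 to 2.12). SLC22A18, a transporter, had 232 in LM2 and 111 in MDA-MB-231, a ratio of 2.12 (1.68 to 2.68). CDKN1C, an inhibitor of the cell cycle, had 375 in LM2 and 461 in MDA-MB-231, a ratio of 0.824 (0.717 to 0.947). Over the 10 nearest genes the median log2 ratio was 0.27, and 0 of them were as low as KCNQ1OT1. Alleles were not separated, so these values do not bear on imprinting.

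**Figure D4:**
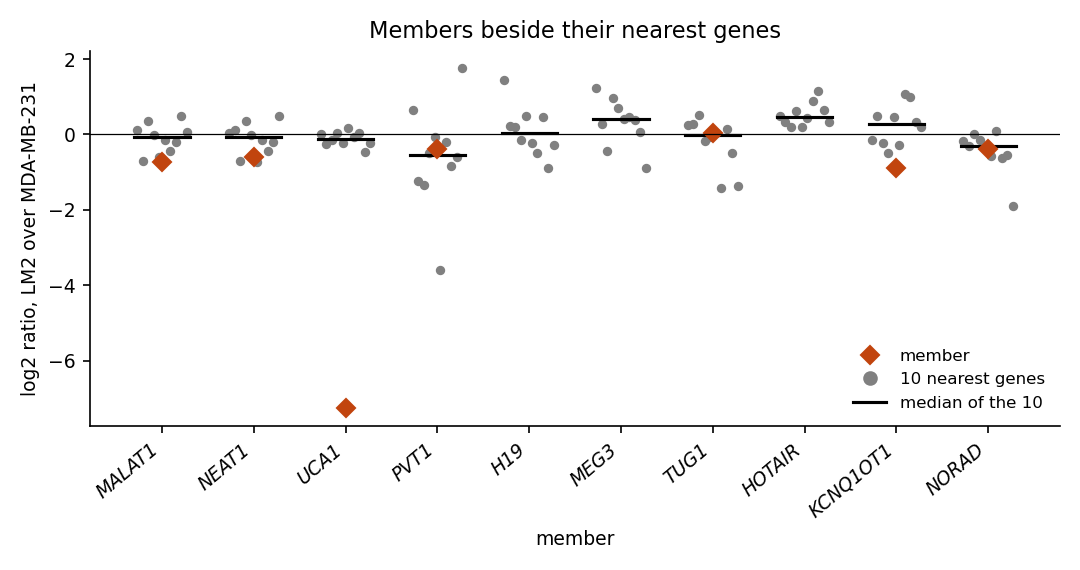
Log2 ratio of LM2 over MDA-MB-231 of each member (diamond) and of the 10 genes nearest to it at the same minimum (grey points, in chromosome order), with the median of the 10 (black line). H19, MEG3 and HOTAIR have no diamond because they are under the minimum. UCA1 at -7.26 lies far below its neighbours (-0.46 to 0.18), and NORAD at -0.38 lies among its own.

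H19 (chr11:1995176-2001470, minus strand) was barely detected. Its model NR_002196 had 12 counts in LM2 and 22 in MDA-MB-231, or 0.0403 RPKM in LM2 and 0.0729 RPKM in MDA-MB-231, and the interval of its ratio, 0.553, includes 1 (0.249 to 1.17). The other 11 models had at most as many counts. MIR675, the microRNA made from H19, had 0 counts in LM2 and 1 in MDA-MB-231, and its 73 bases lie in exons of H19, so reads of both cannot be told apart. IGF2, the growth factor gene imprinted on the other copy, had 0 counts in LM2 and 38 in MDA-MB-231, a mean under 50 counts. It was 12.5-fold lower when the 0 is set to 3 counts, with a counting interval from 9.68-fold upward. MRPL23, a mitochondrial ribosomal protein gene beside H19, had 2970 in LM2 and 2144 in MDA-MB-231.

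MEG3 (chr14:100779410-100861031, plus strand) was not detected in either line, with 0 counts in all 43 of its models. For NR_002766, 3 counts would be 0.0146 RPKM in LM2 and 0.0144 RPKM in MDA-MB-231, which is the level these columns could have missed. Its imprinted neighbours were also at or near 0. DLK1, a Notch ligand, had 0 counts in both lines, RTL1 had 2 in LM2 and 0 in MDA-MB-231, MEG8 had 7 in LM2 and 4 in MDA-MB-231, and MEG9 had 2 in LM2 and 0 in MDA-MB-231.

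HOTAIR (chr12:53962308-53974956, minus strand) likewise had 0 counts in all 8 models in both lines, where 3 counts of NR_003716 would be 0.00985 RPKM in LM2 and 0.00972 RPKM in MDA-MB-231. The HOXC genes around it were silent or nearly so. HOXC10 had 4 counts in LM2 and 2 in MDA-MB-231, and HOXC11, HOXC12 and HOXC13 had 0 in both. The chromatin proteins that HOTAIR and KCNQ1OT1 are studied with were mostly expressed, 9 of 11 above 1 RPKM in both lines. Of the 11 genes 1 was lower by over 2-fold and 0 were higher by as much, with a median log2 ratio of -0.08, beside 6.87% lower and 4.6% higher of all named genes. RBBP7, a histone-binding subunit of the PRC2 complex, had 7031 counts in LM2 and 14663 in MDA-MB-231, 2.06-fold lower, with an interval of 2.0005 to 2.1180 that lies just past the 2-fold limit. DNMT1, the maintenance DNA methyltransferase, had the highest count, with 17600 in LM2 and 17097 in MDA-MB-231.

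Ordered by ratio, from low to high, the members were UCA1, KCNQ1OT1, MALAT1, NEAT1, PVT1, NORAD and TUG1. The counting intervals of neighbours in this order overlapped only for PVT1 and NORAD. Spread between cultures is not known here, so this does not show that the other neighbours differ. The order also changed with the processing. With the transcript of highest mean RPKM, NEAT1 (-0.81) was below MALAT1 (-0.75), and with log2(RPKM + 1) KCNQ1OT1 (-0.20) moved to place 6 of 7.

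A list of 40 other cancer lncRNAs was set beside the members. Of these, 35 were listed and 23 had a mean of at least 50 counts, of which 11 were below and 12 above 0. The median log2 ratio was -0.61 for the members and 0.05 for these 23. Members and list were both chosen with earlier results of these data known, so this difference is a description only. Beyond 2-fold, 3 of 23 were lower and 0 higher, beside 7.54% lower and 4.62% higher of all lncRNA genes. When counts were divided by the total of mRNA models alone, the median of the 23 turned to -0.0038. TP73-AS1 had 6 counts in LM2 and 1804 in MDA-MB-231, 297-fold lower (136 to 810), so a near loss like that of UCA1 was not particular to UCA1. AFAP1-AS1 had 804 counts in LM2 and 3368 in MDA-MB-231, 4.13-fold lower (3.83 to 4.47). PCAT1, which lies near PVT1, had 164 counts in LM2 and 423 in MDA-MB-231, 2.55-fold lower (2.12 to 3.07).

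**Figure D5:**
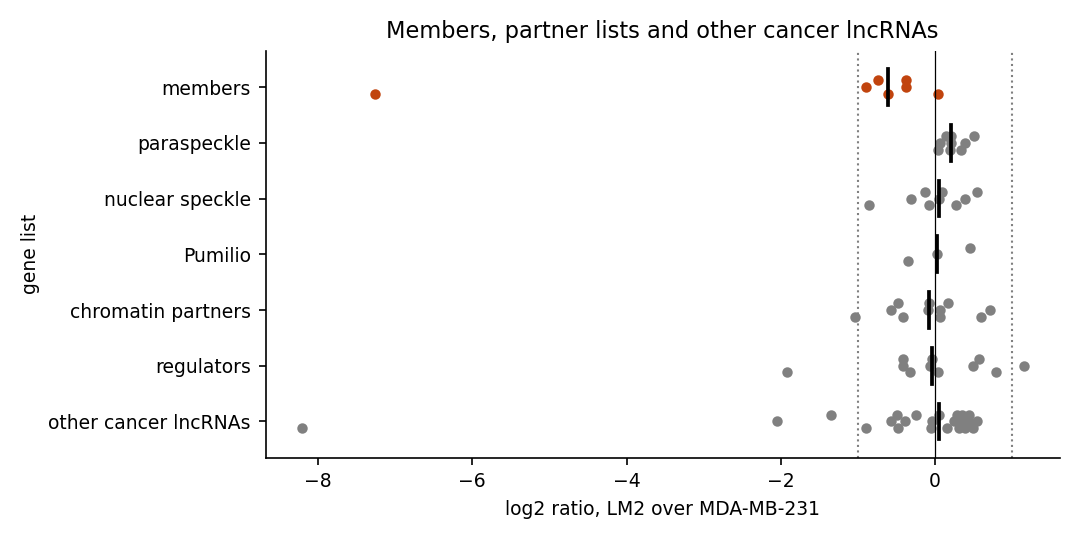
Log2 ratio (x axis, LM2 over MDA-MB-231) of every gene that reached a mean of 50 counts in the members, in 5 lists of partner proteins or regulators and in the other cancer lncRNAs. Points are genes, black bars are medians and dotted lines are 2-fold. The median is -0.61 for the members, 0.21 for paraspeckle proteins and 0.05 for the other cancer lncRNAs.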

How the data were processed

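Total RNA of LM2 and MDA-MB-231 cells was sequenced from Illumina libraries. The submitters' processing notes name bcl2fastq, TopHat2 2.0.13 and the build hg19. Not given in the sources used here: how reads were assigned to transcripts, by which annotation and with or without strand. As measurements, the authors deposited counts per transcript, used here unchanged, and RPKM values, which equal the count over length and column total within a relative 4.98e-06. Reads of overlapping transcripts can enter more than once.

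Symbols were paired through RefSeq (GRCh38.p14) and GENCODE release 29, for 21822 of 23105 ENST, 33714 of 34791 NM_ and 6795 of 7527 NR_ transcripts. All coordinates and sequences printed are of GRCh38, and none of hg19 was converted. Each gene's value is its transcript of highest mean count. Ratios were divided by column totals, with exact 95% intervals. A count of 0 was set to 3 counts for a fold. The interval calculation was tested on simulated data.

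Every member and every listed gene beside it was named, apart from some items that are not reported here. From the partner lists and the other cancer lncRNAs, genes over 2-fold at a mean of at least 50 counts were named, up to 4 per list, with the gene of highest count of each partner list. Members and lists were chosen with earlier results of these data known. The NEAT1 split, the exon overlaps, the Pumilio motif, the neighbours named for their extreme values and the scalings of the partner lists were chosen after values were seen. Alternatives used edgeR 4.0.16 and DESeq2 1.42.0 for scaling factors only. The work was done in Python 3.11.15 (scipy 1.17.1, pandas 2.3.3, numpy 2.4.6, matplotlib 3.10.9) and R 4.3.3.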

Additional observations from a re-analysis of the deposited data

How the results depend on the processing

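Under the 4 other scalings, both other choices of transcript, both pseudocounts and both other minimums, 1 member was over 2-fold lower and 0 were over 2-fold higher, and the median log2 ratio of the members lay between -0.75 (transcript of highest mean RPKM) and -0.37 (log2(RPKM + 1)). With no minimum, members at 0 in both lines were left out of the median. Of 56 values of single members (7 members under 8 alternatives), 42 lay within the counting interval, 12 outside it in the same direction, and 2 changed sign. Both sign changes were of TUG1, with -0.010 when counts were divided by the total of NM_ transcripts only and -0.040 with the transcript of highest mean RPKM, against 0.05. For UCA1 the log2 ratio was -4.25 with log2(RPKM + 0.1) and -1.59 with log2(RPKM + 1), which follows from its low level in LM2. KCNQ1OT1 gave -0.66 and -0.20 with the same pseudocounts. MALAT1 ranged from -0.79 to -0.72, NEAT1 from -0.81 to -0.50, NORAD from -0.43 to -0.36 and PVT1 from -0.43 to -0.29.

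No paired analysis was possible because the columns carry no replicate number and there is 1 per cell line. For the same reason the quasi-likelihood test of edgeR, the test of DESeq2 and leaving out each replicate were not run. Counting intervals do not cover the spread between cultures. At these totals a count of 0 leaves room for levels up to that of 3 counts.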

Other observations

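Among the 2187 lncRNA genes that reached a mean of 50 counts, UCA1 was the only 1 over 100-fold lower in LM2, and 4 were over 100-fold higher. These 5 were chosen by size after their values were seen. AC148477.2 had 1377 counts in LM2 and 4 in MDA-MB-231, a ratio of 349 (136 to 1282), and AC148477.3 had 1221 in LM2 and 1 in MDA-MB-231. LINC00989 had 107 in LM2 and 1 in MDA-MB-231, and AP003555.2 had 106 in LM2 and 1 in MDA-MB-231. TP73-AS1 is not in this count because GENCODE release 29 does not class it as a lncRNA.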
